A study of Homo sapiens with 2 samples.

Results

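The genes described here are the regulators of the tumor suppressor p53, the kinases that report DNA damage to it, and genes known as its targets in the damage response. They were chosen by symbol from a list of 42 genes, without death receptors, BCL2 family genes or CDK inhibitors, and 41 of the 42 were present among the 12014 genes of the 2 libraries (SESN3 was not analysed here). The RNA came from ACHN, a long-cultured human line of renal cell carcinoma. Lentivirus had brought either an shRNA to KIAA1429 (shKIAA1429) or a control hairpin (shNC) into the cells, and puromycin had been used to select stable lines of both kinds. Nothing else differed between the groups by their labels. The labels call the treated cells a KIAA1429 knockout, whereas the methods of the study describe an shRNA knockdown, and which of its KIAA1429 shRNAs was sequenced is not given in the sources used here. Each group held 1 library of poly(A) RNA. No difference below therefore has a replicate check, no p-value was computed, and "higher" and "lower" compare those libraries only.

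p53 is a transcription factor that is made continuously and destroyed continuously. MDM2 marks it for the proteasome, and MDM4, a close relative of MDM2, binds and silences it. After DNA damage the kinases ATM and ATR and their relays CHEK2 and CHEK1 phosphorylate p53 and free it from MDM2. p53 then switches on genes for growth arrest, DNA repair, metabolism and cell death, and among them its own inhibitors MDM2 and PPM1D, which closes a feedback loop. KIAA1429, now named VIRMA, is a scaffold of the methyltransferase complex that writes N6-methyladenosine (m6A) on mRNA.

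p53 binds DNA as a tetramer, and its consensus site consists of 2 copies of a 10-base element. RefSeq windows from 250 bases before to 50 bases after each annotated start (GRCh38.p14) were searched for both copies side by side, with at most 3 mismatches in the 20 bases. The element reads the same on both strands, and no spacer between the copies was allowed. Windows were found for 36 of the 41 members, and 8 of these (22.2%) held a match. RRM2B, TP53INP1, GADD45A, FBXO22 and PHLDA3 had no window and were not searched. Of all 27305 genes with a window, 1745 (6.39%) held a match. Many members were chosen as known p53 targets, so a higher share among them may come from that choice. The matches are printed because they include MDM2, one of the members that differed most between the libraries, as well as FDXR and XPC, which differed little. Each line gives the strand of the gene 5′ to 3′, with the 20 matched bases in capitals and flanks of at most 5 bases in lower case.
DDB2, chr11:47214964-47214993, plus strand, 1 mismatch: gctccAAGCTGGTTTGAACAAGCCCtgggc
AEN, chr15:88621301-88621330, plus strand, 2 mismatches: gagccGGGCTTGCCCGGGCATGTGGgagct
MDM2, chr12:68808918-68808947, plus strand, 2 mismatches: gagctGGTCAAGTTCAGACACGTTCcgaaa
FDXR, chr17:74872991-74873020, minus strand, 3 mismatches: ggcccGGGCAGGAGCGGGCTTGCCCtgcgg
GDF15, chr19:18386181-18386207, plus strand, 3 mismatches: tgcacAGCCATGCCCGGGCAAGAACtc
SESN1, chr6:109009013-109009042, minus strand, 3 mismatches: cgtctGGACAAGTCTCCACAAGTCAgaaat
THBS1, chr15:39580957-39580986, plus strand, 3 mismatches: cggagAGAGGAGCCCAGACTGGCCCccacc
XPC, chr3:14178565-14178594, minus strand, 3 mismatches: aagtgGAATTTGCCCAGACAAGCAAcatgg

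The match of DDB2 began 5 bases before its start and that of AEN 34 bases before. In MDM2, for which RefSeq gave 4 start windows, it began 94 bases before one of these starts. With at most 2 mismatches, 3 members (DDB2, AEN and MDM2) and 224 of all genes (0.820%) held a match. A match describes letters in a window. It does not show that p53 bound there, and members without a match may hold sites elsewhere.

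Values are FPKM as the authors deposited them, that is, fragments per length of the gene and per size of the library. The FPKM of all listed genes summed to 283046 with shNC and 249409 with shKIAA1429. Mitochondrial genes held 42.2% and 34.6% of these sums. The depth of the libraries is unknown, since FPKM keeps no read counts. In the shNC library the targeted gene VIRMA was at 3.92 FPKM. In the shKIAA1429 library it was at 3.22 FPKM, or 82.1% of the control. This difference lies under the limit of 1.5-fold used below. Rescaling to equal sums of all genes would bring VIRMA nearer to the control, since the shKIAA1429 sum is the smaller. This need not hold for sums without the mitochondrial genes, whose share differed between the libraries. VIRMA was not computed under either rescaling. Of the markers of renal epithelium and of this tumor, PAX8, PAX2, KRT8, KRT18 and VIM were all above 30 FPKM in both libraries. PAX8 was higher (64.7 FPKM with shNC and 104 FPKM with shKIAA1429) and VIM was lower (368 and 228 FPKM). The markers of leukocytes, endothelium, hepatocytes and muscle (PTPRC, PECAM1, ALB and DES) were not listed, and COL1A1, a marker of fibroblasts, was at 1.08 and 1.62 FPKM.

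For each gene, FPKM + 1 in the shKIAA1429 library was divided by FPKM + 1 in the shNC library, and the change is given as the log2 of this ratio, on which low genes appear to differ less than they do in FPKM. A gene was counted as higher or lower when it passed 1.5-fold on this scale. All 41 members had a mean of at least 1 FPKM and were set beside the 10702 genes that did. Of the members, 30 (73.2%) were higher with shKIAA1429 by any amount, against 57.3% of all genes. In the higher direction, 7 members passed 1.5-fold, namely BTG2, MDM2, RRM2B, SESN2, TIGAR, ZMAT3 and RCHY1. These 7 were 17.1% of the members, against 6.85% of all genes. MDM4 alone was lower by 1.5-fold, which was 2.44% of the members against 4.21% of all genes. At a limit of 2-fold, 3 members (BTG2, MDM2 and RRM2B) were higher, 7.32% against 1.61% of all genes, and 1 member (MDM4) was lower, 2.44% against 0.897%. The median log2 change was 0.26 over the members and 0.058 over all genes. In bulk RNA, fewer expressing cells and less RNA per cell cannot be told apart.

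The count of higher members depended on the scaling of the libraries and on the weight of the pseudocount. With both libraries rescaled to the mean of their sums, an alternative chosen after seeing the data that leaves the pseudocount its weight, 16 members were higher and 1 was lower by 1.5-fold, against 13.0% and 2.40% of all genes. With both rescaled to 1000000, which also makes the pseudocount small beside the values, 20 members were higher and 1 was lower, against 17.9% and 3.43% of all genes. The median of all genes was then 0.24, up by 0.18. Members said below to turn positive after this rescaling stayed below that median. Without the mitochondrial genes in that sum, 8 members were higher and 2 lower, against 10.2% and 6.18% of all genes. The 8 members named above stayed past 1.5-fold in their direction under every scaling and pseudocount tried. Rescaling to the mean of the sums or to 1000000 added TP53I3, TP53INP1, SESN1, GADD45B, BTG1, POLH, AEN, PPM1D and GDF15 to the higher members. Rescaling to 1000000 also added PLK3, DDB2, FBXO22 and CHEK2.

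**Figure D1:**
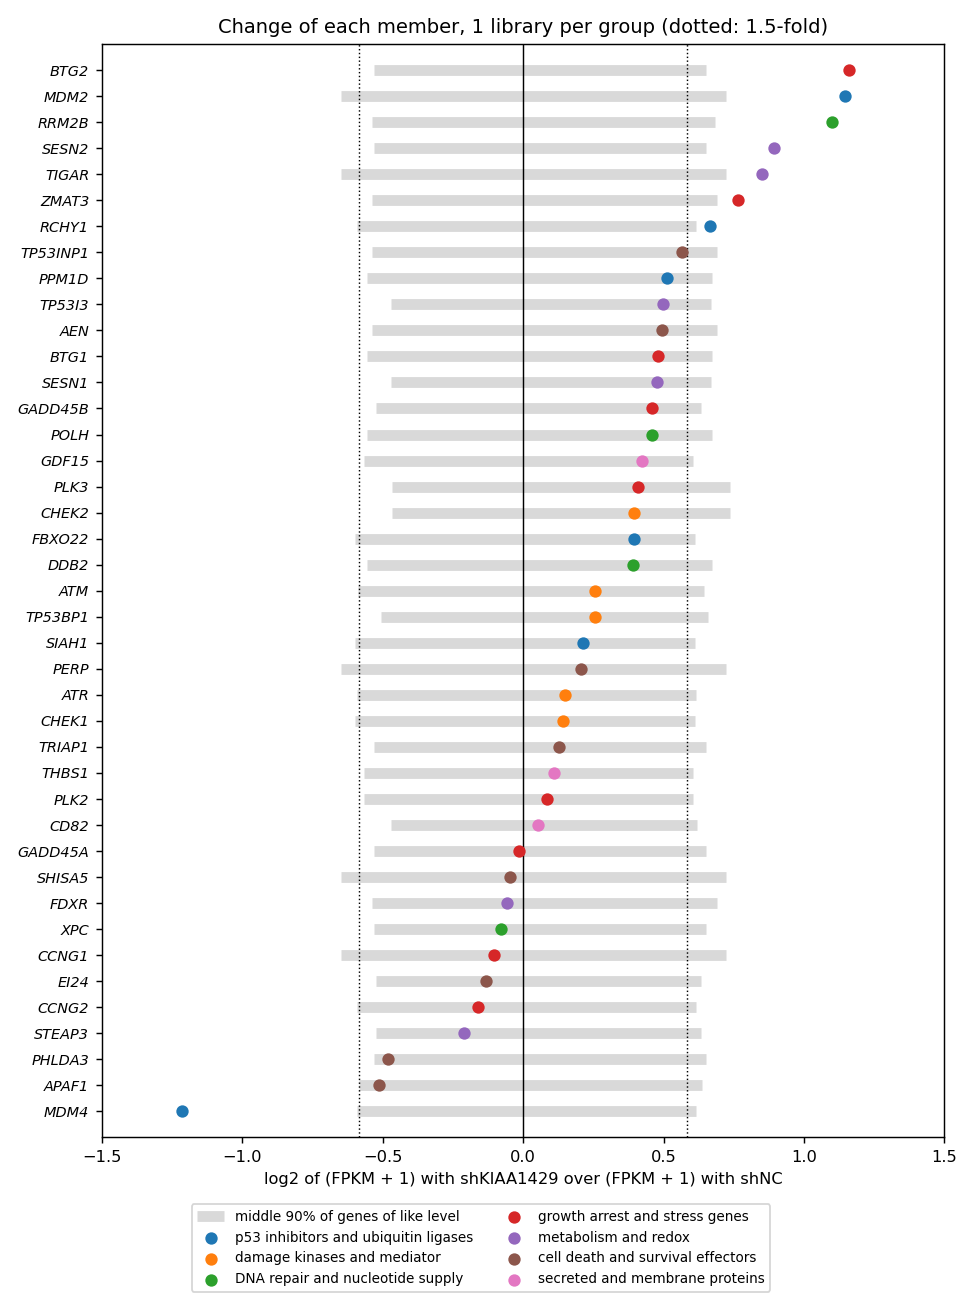
Log2 change of each member (points, coloured by role) beside the middle 90% of the changes of genes with a like mean FPKM (grey bars, 20 bins of level); dotted lines mark 1.5-fold, and each group is 1 library. The 7 members that passed 1.5-fold in the higher direction lie to the right of their bars, MDM4 lies to the left of its bar at -1.22, and the other members lie within theirs.

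The inhibitors of p53 and the ubiquitin ligases that act on it held both the highest and the lowest changes of the regulators. Of these 6 genes, 5 (83.3% against 57.3% of all genes) were higher at all and 1 was lower. MDM2, the main E3 ligase of p53 and itself a p53 target, was at 15.7 FPKM with shNC and 35.99 FPKM with shKIAA1429, a log2 change of 1.14. Of the 535 genes of like mean level, 5 had a higher change than MDM2. The gene (ENSG00000135679.22_3) lies at chr12:69201956-69244466 on the plus strand of GRCh37, and it overlaps CPM on the opposite strand, which was at 0.600 and 0.528 FPKM. MDM4, which inhibits p53 without degrading it, was at 3.44 FPKM with shNC and 0.913 FPKM with shKIAA1429, a log2 change of -1.22. Of its 535 genes of like level, 3 had a lower change, and among all 10702 genes MDM4 ranked 50 from the lowest. It (ENSG00000198625.12_2) lies at chr1:204485507-204527248 on the plus strand. The paralogs thus differed in opposite directions. MDM2 had 4.57 times the FPKM of MDM4 with shNC and 39.4 times with shKIAA1429. The latter ratio rests on an MDM4 level of 0.913 FPKM in 1 library of unknown depth. The difference between the log2 changes of the paralogs was 2.36. Their summed level was 19.2 and 36.9 FPKM.

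RCHY1, also called PIRH2, is another ligase for p53 and a p53 target. It was at 1.45 FPKM with shNC and 2.89 FPKM with shKIAA1429, a log2 change of 0.66, the smallest of the 7 that passed 1.5-fold. It (ENSG00000163743.13_2, chr4:76404247-76439974, minus strand) overlaps THAP6 on the opposite strand, which was at 1.66 and 2.78 FPKM. Whether the strand was used in assigning fragments is not given in the sources used here, so the part of THAP6 in the RCHY1 value was not tested. PPM1D, the phosphatase WIP1 that removes the marks of the damage kinases, was at 7.38 and 10.9 FPKM, a log2 change of 0.51. FBXO22, part of an SCF ligase, had a log2 change of 0.39 from 3.30 to 4.65 FPKM, and SIAH1, a RING ligase, 0.21 from 4.03 to 4.84 FPKM. The last 3 genes stayed under 1.5-fold. The 6 genes summed to 35.3 and 60.2 FPKM.

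The damage kinases and their mediator were expressed at low levels and differed little. All 5 were higher with shKIAA1429, against 57.3% of all genes. By 1.5-fold, 0 of 5 were higher, against 6.85% of all genes. Their log2 changes ran from 0.14 to 0.39, with a median of 0.25. ATM, the kinase that answers double-strand breaks, was at 1.77 FPKM with shNC and 2.31 FPKM with shKIAA1429, and it overlaps NPAT on the opposite strand at 1.83 and 3.16 FPKM. ATR, which answers stalled replication, was at 2.10 and 2.44 FPKM. Among the kinases they activate, CHEK2 was at 2.80 and 3.99 FPKM, the highest change of the 5. CHEK1 was at 3.83 and 4.32 FPKM. CHEK1 is the only member that shares its strand with an overlapping listed gene, STT3A, which was at 22.1 and 21.9 FPKM. TP53BP1, a scaffold at broken DNA, was at 4.87 and 6.01 FPKM.

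**Figure D2:**
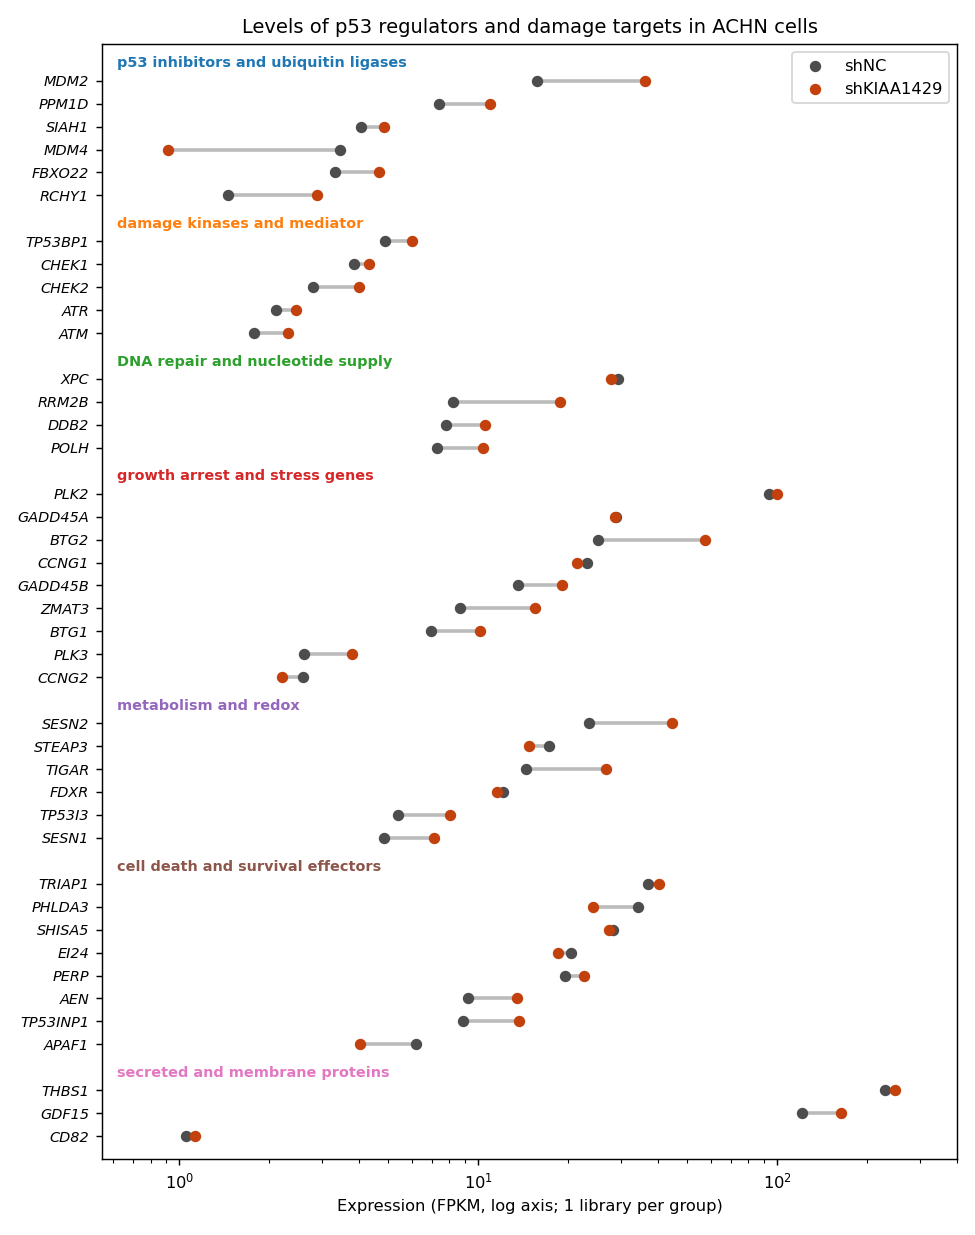
FPKM of each member (log axis) with shNC (grey) and with shKIAA1429 (orange), grouped by role and ordered by level, 1 library per group. The longest lines to the right belong to MDM2, RRM2B and BTG2, and the longest to the left to MDM4, from 3.44 to 0.913 FPKM.

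Of the 4 genes of DNA repair and nucleotide supply, 1 (25% against 6.85% of all genes) was higher by 1.5-fold. RRM2B encodes p53R2, the small subunit of ribonucleotide reductase that supplies deoxyribonucleotides for repair outside S phase. It was at 8.22 FPKM with shNC and 18.8 FPKM with shKIAA1429, a log2 change of 1.10 that 7 of 535 genes of like level exceeded. Its position in the files (ENSG00000048392.11_2) is chr8:103216730-103251346 on the minus strand. POLH, the translesion polymerase eta, was at 7.26 and 10.3 FPKM with a log2 change of 0.46, and GTPBP2 on the opposite strand had a log2 change of 0.45. The damage sensors of nucleotide excision repair went different ways. DDB2, whose window held the match nearest to the consensus, was at 7.78 FPKM with shNC and 10.5 FPKM with shKIAA1429, a log2 change of 0.39. XPC was at 29.4 and 27.8 FPKM, a log2 change of -0.08 that turned positive after rescaling to 1000000. LSM3, which overlaps XPC on the opposite strand, was at 16.05 and 22.4 FPKM.

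The growth arrest and stress genes held the highest change of all members. BTG2, an antiproliferative partner of the CCR4-NOT deadenylase and a long-known p53 target, was at 25.1 FPKM with shNC and 57.2 FPKM with shKIAA1429, a log2 change of 1.16. Of its 535 genes of like level, 3 had a higher change, and among all genes it ranked 111 from the highest. BTG2 (ENSG00000159388.5_2) lies at chr1:203274619-203278730 on the plus strand. Its paralog BTG1 was at 6.94 and 10.1 FPKM, a log2 change of 0.48 that was 0.68 below that of BTG2. Together they reached 32.0 and 67.3 FPKM.

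ZMAT3, also called WIG1, is an RNA-binding p53 target that acts on splicing and mRNA stability. It was at 8.69 FPKM with shNC and 15.5 FPKM with shKIAA1429, a log2 change of 0.76. It (ENSG00000172667.10_2) lies at chr3:178735011-178790067 on the minus strand. The GADD45 stress genes, which feed into p38 and JNK signaling, differed from each other. GADD45B was at 13.6 and 19.1 FPKM, a log2 change of 0.46. GADD45A, the member classically induced by p53, was at 28.9 and 28.6 FPKM, a log2 change of -0.01 that turned positive after rescaling to 1000000. The ratio of GADD45A to GADD45B was 2.12 with shNC and 1.499 with shKIAA1429.

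Among the polo-like kinases, PLK3 was at 2.60 and 3.79 FPKM, a log2 change of 0.41. PLK2, a kinase of centriole duplication, was 35.98 times as abundant as PLK3 in FPKM with shNC and was at 93.5 and 99.3 FPKM, a log2 change of 0.08. The G-type cyclins lay on the other side of 0. CCNG1, which recruits the phosphatase PP2A to MDM2, was at 23.0 FPKM with shNC and 21.4 FPKM with shKIAA1429, a log2 change of -0.10 that turned positive after rescaling to 1000000. CCNG2 was at 2.58 and 2.20 FPKM, a log2 change of -0.16. Over the 9 genes of this role, 6 (66.7% against 57.3% of all genes) were higher at all, and the median log2 change was 0.41. By 1.5-fold, 2 (BTG2 and ZMAT3) were higher, 22.2% against 6.85% of all genes.

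The genes of metabolism and redox control had the highest median of the roles, 0.49. By 1.5-fold, 2 of 6 (33.3% against 6.85% of all genes) were higher. SESN2, a sestrin that restrains mTORC1 when leucine is scarce and answers oxidative and ER stress, was at 23.5 FPKM with shNC and 44.6 FPKM with shKIAA1429, a log2 change of 0.89. It (ENSG00000130766.4_2) lies at chr1:28586038-28609002 on the plus strand. SESN1, the sestrin best known as a p53 target, was at 4.82 and 7.10 FPKM, a log2 change of 0.48. Together the sestrins reached 28.3 and 51.6 FPKM. TIGAR, a phosphatase of fructose-2,6-bisphosphate that turns glucose toward the pentose phosphate pathway, was at 14.4 FPKM with shNC and 26.7 FPKM with shKIAA1429, a log2 change of 0.85. It (ENSG00000078237.6_2) lies at chr12:4416929-4463759 on the plus strand. Of their genes of like level, 10 had a higher change than SESN2 and 13 a higher change than TIGAR.

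TP53I3, a quinone oxidoreductase also called PIG3, was at 5.40 and 8.03 FPKM, a log2 change of 0.50. The metal handling genes of this role were not higher. FDXR, the ferredoxin reductase of iron-sulfur cluster and steroid synthesis, was at 12.0 FPKM with shNC and 11.5 FPKM with shKIAA1429, a log2 change of -0.06 that turned positive after rescaling to 1000000. STEAP3, a ferrireductase of endosomes, was at 17.2 and 14.7 FPKM, a log2 change of -0.21.

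Of the 8 effectors of cell death and survival, 4 (50%, near the 57.3% of all genes) were higher and 4 were lower. Of these 8 genes, 0 passed 1.5-fold, against 6.85% of all genes higher and 4.21% lower. Their median log2 change was 0.04, and they summed to 163 and 164 FPKM. TP53INP1, an autophagy and death protein that lies nearest below the limit of 1.5-fold, was at 8.91 and 13.7 FPKM, a log2 change of 0.57. AEN, a p53-induced nuclease of apoptosis, was at 9.23 and 13.4 FPKM, a log2 change of 0.50. PERP, a membrane protein of desmosomes, was at 19.5 and 22.6 FPKM and TRIAP1, a mitochondrial survival factor, at 36.8 and 40.3 FPKM. On the scale of FPKM + 1 and without rescaling, these 4 genes stayed under 1.5-fold. The plain FPKM of TP53INP1 was 1.54 times that of shNC, and the gene passed the limit with a pseudocount of 0.1 and after rescaling the libraries.

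On the other side, APAF1, the core of the apoptosome that activates caspase-9, was at 6.17 FPKM with shNC and 4.03 FPKM with shKIAA1429. Its log2 change of -0.51 was the lowest after MDM4, and it passed 1.5-fold with a pseudocount of 0.1. PHLDA3, a p53-induced repressor of AKT, was at 34.2 and 24.2 FPKM, a log2 change of -0.48. SHISA5, an ER protein of p53-dependent death also called Scotin, was at 28.3 and 27.3 FPKM, and EI24, an ER protein also called PIG8, at 20.4 and 18.5 FPKM. Both of these small differences changed sign after rescaling to 1000000.

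The secreted and membrane proteins included the most abundant members. THBS1, the matrix glycoprotein thrombospondin-1, was at 230 FPKM with shNC and 248 FPKM with shKIAA1429, a log2 change of 0.11. GDF15, a stress cytokine of the TGF-beta family, was at 121 and 163 FPKM, a log2 change of 0.42. CD82, a tetraspanin that restrains metastasis, was the least abundant member with shNC at 1.05 FPKM and was at 1.12 FPKM with shKIAA1429, a difference that fell below 0 after centring on the median of all genes. Together THBS1, GDF15 and PLK2 held 49.3% of the summed FPKM of the members with shNC and 46.7% with shKIAA1429. The sum over all 41 was 901 and 1092 FPKM, and the median level was 8.69 and 13.4 FPKM, against 5.70 and 6.10 FPKM over all genes.

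**Figure D3:**
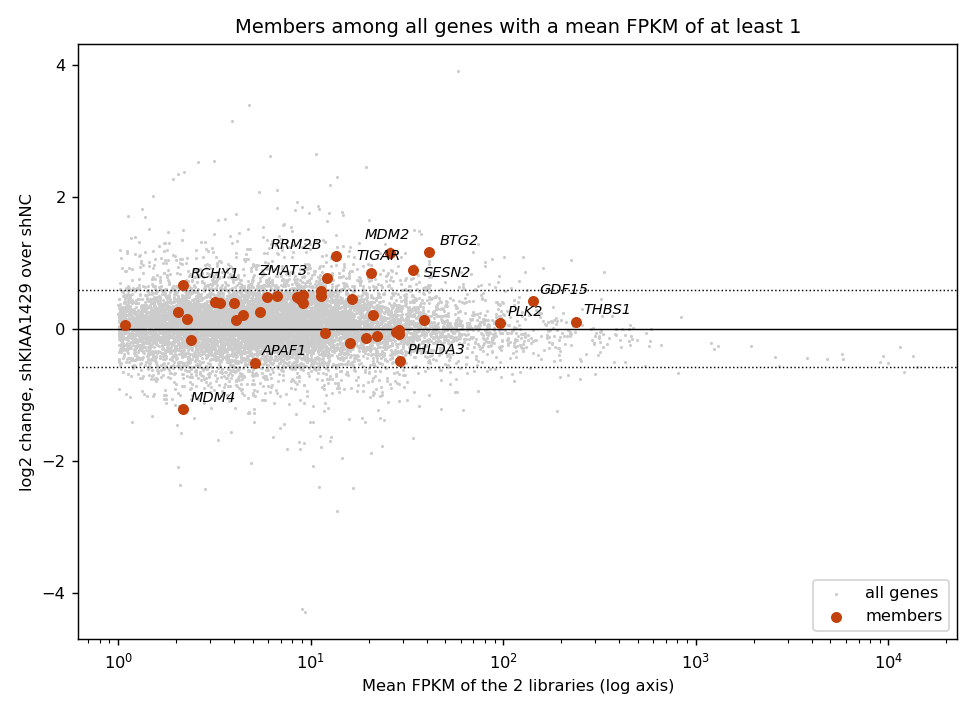
Log2 change against the mean FPKM of both libraries (log axis) for the members (orange) and all 10702 genes (grey), with 1.5-fold marked by dotted lines. The members that passed 1.5-fold had means from about 2 FPKM (RCHY1 and MDM4) to 41.2 FPKM (BTG2), and the most abundant, THBS1, GDF15 and PLK2, lie inside the lines.

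The members were also divided by whether textbook knowledge counts them as induced by p53 in most cell types. This division was made with earlier results of these data known, so the contrast below is a description only. Of the 24 such targets, 18 (75% against 57.3% of all genes) were higher at all, 6 (25% against 6.85%) were higher by 1.5-fold and 0 (against 4.21%) were lower. The median log2 change was 0.44. The other 17 members are not a group without p53 targets, since RCHY1 for one is a p53 target. Of these 17, 12 (70.6% against 57.3% of all genes) were higher at all, and the median was 0.15. RCHY1 alone (5.88% against 6.85%) was higher by 1.5-fold. MDM4 alone was lower, against 4.21% of all genes. The median was 0.41 in the 8 members with a p53-type match in a promoter window and 0.23 in the 28 with a window and no match. Of those 8, MDM2 was the only one higher by 1.5-fold, against 6.85% of all genes. Of the 28, 5 were higher by 1.5-fold, against 6.85% of all genes, and 1, MDM4, was lower, against 4.21%. These groups are small, and whether they differ was not tested. RRM2B, also higher by 1.5-fold, had no window and is in neither group.

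Other genes of the pathway were listed from general knowledge, with earlier results of these data known. The medians and shares of these lists are therefore descriptions only. Of 45 further p53-induced genes with a mean of at least 1 FPKM, 34 (75.6% against 57.3% of all genes) were higher at all. By 1.5-fold, 7 (15.6% against 6.85% of all genes) were higher and 2 were lower, against 4.21% of all genes. The median log2 change was 0.29. E2F7, a repressor of cell cycle genes, was highest at 4.32 FPKM with shNC and 17.6 FPKM with shKIAA1429, a log2 change of 1.81. BLOC1S2, a subunit of lysosome positioning complexes, was at 10.1 and 18.0 FPKM, and DRAM1, a lysosomal protein of autophagy, at 22.8 and 39.5 FPKM. ASCC3, a helicase of alkylation repair, was at 6.34 and 11.3 FPKM, and SPATA18, a protein of mitochondrial quality control, at 8.09 and 14.0 FPKM. The 2 lower genes, ORAI3, a calcium channel, and PANK1, a kinase of coenzyme A synthesis, were named after their values were seen. Their log2 changes were -0.72 and -0.61.

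The targets that belong to cell death and the cell cycle, kept out of the members by their definition, had a median of 0.96. By 1.5-fold, 8 of 11 (72.7% against 6.85% of all genes) were higher and 0 lower. BAX, BCL2L1 and TNFRSF10D, named after their values were seen, did not pass, with log2 changes of -0.02, 0.14 and 0.56. The death receptor FAS was at 6.29 and 23.1 FPKM, IGFBP3, which binds insulin-like growth factors, at 9.13 and 30.9 FPKM, and the BH3-only gene PMAIP1 at 13.7 and 34.9 FPKM. The TRAIL receptors TNFRSF10B and TNFRSF10A had log2 changes of 1.03 and 0.995. Of 33 partners in checkpoints and double-strand break repair, 26 (78.8% against 57.3% of all genes) were higher at all, with a median of 0.20. By 1.5-fold, 2 (6.06%, near the 6.85% of all genes) were higher. These were CLSPN, the adaptor that brings CHEK1 to ATR (2.23 and 5.08 FPKM), and TOPBP1, which activates ATR (6.50 and 10.9 FPKM). Of 18 partners in nucleotide excision repair, 13 (72.2%) were higher at all, and the median was 0.10. By 1.5-fold, 1 (5.56%, near the 6.85% of all genes) was higher, the endonuclease ERCC5 (5.42 and 10.6 FPKM). Of 24 cofactors and modifiers of p53, 11 (45.8%) were higher at all. Of these 24, 0 passed 1.5-fold, against 6.85% of all genes higher and 4.21% lower. Their median was -0.03, below the 0.058 of all genes. After rescaling to 1000000 it was 0.15, again below that of all genes.

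**Figure D4:**
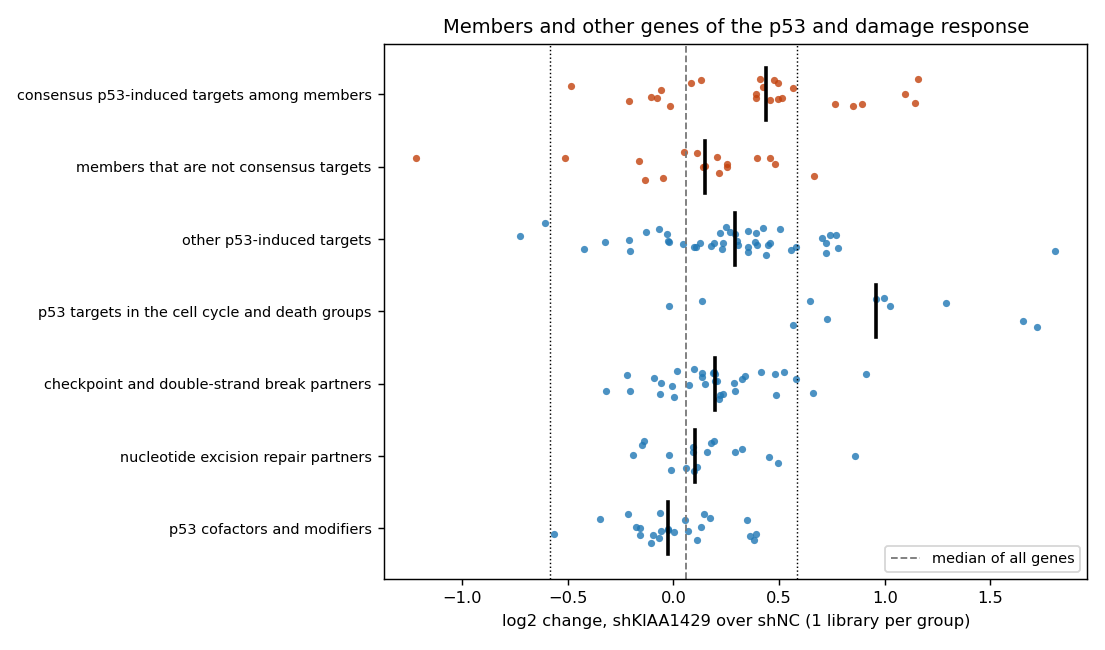
Log2 change of each gene (points) and the median of each list (black bars) for the members, divided into consensus targets and others (orange), and for 5 other lists of the p53 and damage response (blue); the dashed line is the median of all genes and the dotted lines mark 1.5-fold. The medians run from 0.96 for the targets of the cell cycle and death groups to -0.03 for the cofactors and modifiers, with 0.44 for the consensus targets among the members.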

How the data were processed

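RNA-seq of ACHN cells with shKIAA1429 or shNC was analysed from 1 library per group. The authors deposited FPKM per gene. The submitters' processing notes name cutadapt 1.9, HISAT2 2.0.4 and StringTie 1.3.4d, with DESeq2 and edgeR for their own comparison, and whether fragments were assigned by strand is not given in the sources used here. Both files hold the same 12014 genes with GENCODE identifiers placed on GRCh37, and no gene is below 0.5 FPKM in both. FPKM values fell on no common step that would give read counts, so the depth is unknown and a count test was not used.

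Changes were computed as log2 of (FPKM + 1) over (FPKM + 1), for genes with a mean of at least 1 FPKM. For 7 symbols that occur repeatedly, the row of highest mean stood for the gene. Genes of like level are those of 1 of 20 bins of mean FPKM. The limit of 1.5-fold is a description of size, not a test. Every member is named, and of each other list up to 5 genes with the largest changes past 1.5-fold, with exceptions said in the text. The members, lists and limits were chosen with earlier results of these data known. Promoter windows came from RefSeq (GRCh38.p14), and 3′ untranslated parts from GENCODE 29. Alternatives were a pseudocount of 0.1, rescaling to a sum of 1000000 with or without mitochondrial genes, centring, no filter or a mean of at least 5 FPKM, leaving out same-strand overlaps, summing repeated rows, and limits of 2-fold and of 1.5 on the log2 scale. The steps were run on simulated data with small noise and planted changes far past the limit. Such a run checks the code and says nothing of the differences reported here. Python 3.11.15, NumPy 2.4.6, pandas 2.3.3 and matplotlib 3.10.9 were used.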

Additional observations from a re-analysis of the deposited data

How the results depend on the processing

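No paired analysis was possible because each group holds 1 library. The 8 members past 1.5-fold stayed past it in the same direction under every alternative that kept them, and a mean of at least 5 FPKM did not keep MDM4 and RCHY1. No filter, the mean of at least 5 FPKM, leaving out overlaps and summing rows could not alter the value of a member that was kept, so they say nothing of its stability. With a pseudocount of 0.1 MDM4 was at -1.81. Against 7 higher and 1 lower members, rescaling to 1000000 gave 20 higher, 48.8% against 17.9% of all genes. A limit of 2-fold gave 3 higher, 7.32% against 1.61% of all genes. At 1.5 on the log2 scale 0 members were higher or lower, and 68 of all 10702 genes passed in either direction. The lower count was 2 (MDM4 and APAF1) with a pseudocount of 0.1, against 6.56% of all genes. It was also 2 with rescaling without mitochondrial genes, against 6.18%. With a mean of at least 5 FPKM it was 0, against 4.02%. After rescaling to 1000000 the medians were 0.50 for the members, 0.67 for the consensus targets, 0.36 for the other members, 0.49 for other p53-induced targets, 0.39 for checkpoint partners, 0.29 for nucleotide excision repair partners and 0.15 for cofactors and modifiers. With a pseudocount of 0.1, 10.4% of all genes were higher by 1.5-fold.

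Centring moved the medians of the other members, nucleotide excision repair partners and cofactors to 0.092, 0.046 and -0.084. A mean of at least 5 FPKM gave 0.41 for the members and -0.043 for the cofactors, with fewer genes kept. Changes of sign were seen in 7 members, namely GADD45A, XPC, FDXR, CCNG1, EI24 and SHISA5 with either rescaling of all genes and CD82 with centring. Rescaling to 1000000 changed both the ratio of the libraries and the weight of the pseudocount. Rescaling to the mean of the 2 sums, chosen after seeing the data, changed the ratio only. It gave 16 higher members, 39.0% against 13.0% of all genes. The medians were 0.41 for the members, 0.29 for the other members and 0.45 for other p53-induced targets. They were 0.35 for checkpoint partners, 0.27 for nucleotide excision repair partners and 0.14 for cofactors and modifiers. Depth is unknown and sets no interval here.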

Other observations

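The core letters GGACT, a frequent form of the m6A motif, were counted on the sense strand of the 3′ untranslated part of the longest coding transcript of each gene (GENCODE 29). They were present in 30 of 41 members (73.2%) and in 6628 of 10644 genes with an annotated coding transcript (62.3%). The 3′ parts of the members were longer, with a median of 1825 bases against 1290 for all genes. Per kilobase, the members held 0.777 copies and all genes 0.824. The 7 members higher by 1.5-fold held 0.667 copies per kilobase and the other members 0.824. MDM2 held 8 copies, RRM2B 5, MDM4 4, SESN2 3, BTG2 and RCHY1 2 each, ZMAT3 1 and TIGAR 0. These counts describe sequence only, and no m6A measurement was analysed here.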
